A study of Mus musculus with 9 samples.

Results

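The Ms4a genes listed here are 7 of the 19 genes of the mouse membrane-spanning 4-domains A family among the 32285 genes counted in this study: Ms4a4a, Ms4a4c, Ms4a6b, Ms4a6c, Ms4a6d, Ms4a7 and Ms4a14. They were found by gene symbol, all 7 symbols were present once, and their unique molecular identifiers (UMIs, each standing for 1 captured RNA molecule) were counted in all 9 libraries and in each cell class. The samples were nuclei of epididymal adipose tissue (epiAT) of male C57BL/6J mice, profiled by single-nucleus RNA sequencing (snRNA-seq), with 1 library of 5 pooled mice per diet group. Mice of C (18 weeks old), CC (26 weeks) and CCC (39 weeks) ate control diet only. Mice of H (18 weeks) and HH (31 weeks) ate high-fat diet (HFD) for 12 and 25 weeks. HC (26 weeks) and HHC (39 weeks) had the same HFD periods followed by 8 weeks of control diet, the weight-loss arms. CCH mice (30 weeks) ate control diet for 26 weeks and HFD for the last 4 weeks, and HCH mice (30 weeks) ate HFD for 12 weeks, control diet for 8 weeks and HFD again for 4 weeks. All control diets are called chow in the sample labels, but the study's methods name 2 of them, a low-fat chow beside the HFD and another chow given to both arms during weight loss, so that CC and CCC, like HC and HHC, ended on a different chow from C.

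Ms4a genes encode small membrane proteins that cross the membrane several times and sit beside receptors of immune cells. The best known are Ms4a1, the B cell antigen CD20, and Ms4a2, the beta chain of the IgE receptor of mast cells. Ms4a4a, Ms4a6 genes and Ms4a7 are known mostly from macrophages and microglia, and the human genes have been linked to soluble TREM2, the shed form of a lipid receptor of the macrophages that gather around dying fat cells. Adipose tissue holds perivascular macrophages (PVMs) in lean animals and lipid-associated macrophages (LAMs) in obese ones.

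The 9 libraries held 22599619 to 66615262 UMIs, and 73308 of 91687 barcodes were kept as nuclei, 4016 (CC) to 12547 (HH) per library. Between 8 and 55 barcodes were shared by each pair of libraries. Nuclei were assigned to 13 classes by marker genes that include no Ms4a gene, and 20.8% to 64.0% of the nuclei of a library had no class. Macrophage-gated nuclei numbered 1283 (C), 218 (CC), 352 (CCC), 1634 (CCH), 5178 (H), 5500 (HH), 1043 (HC), 2591 (HHC) and 3170 (HCH). These numbers depend on the method, since clusters of each library held 479 (CCC) to 6103 (HH) macrophage nuclei, with 651 in CC. LAM-gated nuclei made up 1.83% to 4.26% of them in C, CC, CCC and CCH and 44.9% to 78.1% in H, HH, HC, HHC and HCH, whereas PVM-gated nuclei made up 83.0% to 89.8% and 1.54% to 24.3%. C, H, HH, CCH and HCH belonged to 1 sequencing set (S075) and CC, CCC, HC and HHC to another (S019).

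The 7 genes lie within 304 kb of chromosome 19 (GRCm38, GENCODE vM21 coordinates). Their order is Ms4a14 (11301249 to 11314454, minus strand), Ms4a7 (11321039 to 11336146, minus), Ms4a4a (11375523 to 11392790, plus), Ms4a4c (11404770 to 11427246, plus), Ms4a6c (11469366 to 11482192, plus), Ms4a6b (11516512 to 11531256, plus) and Ms4a6d (11586604 to 11604849, minus). Ms4a14 and Ms4a7 are the nearest neighbours, 6.58 kb apart on the same strand. Introns make up 69.2% to 95.2% of each gene, and intronic reads were counted. The spliced transcripts of Ms4a6b and Ms4a6c share 7 windows of 90 bases and those of Ms4a4b and Ms4a4c share 39. Reads that lie wholly within these stretches might not be placed uniquely, which was not tested. No other pair that includes one of the 7 genes shared such a window. Ms4a4c, Ms4a6b and Ms4a6c each overlap a gene on the opposite strand (Gm5692, Gm19261 and BE692007).

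The promoters of Ms4a7, Ms4a14, Ms4a4a and Ms4a6b are shown because the pairs Ms4a7 with Ms4a14 and Ms4a4a with Ms4a6b varied together over the libraries, and that of Ms4a6c because it shares a long run with Ms4a6b. Ms4a6c also varied together with Ms4a6d, but the reference held no promoter of Ms4a6d. Each is the 250 bases upstream of a RefSeq transcript start (GRCm38.p6), 5′ to 3′ on the strand of the gene, with capitals marking the letters GGAAGT (core of the ETS family, which includes the macrophage factor PU.1) or TGANTCA (AP-1) on either strand.
Ms4a14 (chr19:11314455-11314704, minus strand): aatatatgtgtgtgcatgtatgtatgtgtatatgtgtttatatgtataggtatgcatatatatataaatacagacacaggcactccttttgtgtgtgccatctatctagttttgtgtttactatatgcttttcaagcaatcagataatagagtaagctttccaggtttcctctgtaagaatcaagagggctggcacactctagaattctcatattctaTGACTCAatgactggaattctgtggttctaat
Ms4a7, first start (chr19:11336147-11336396, minus strand): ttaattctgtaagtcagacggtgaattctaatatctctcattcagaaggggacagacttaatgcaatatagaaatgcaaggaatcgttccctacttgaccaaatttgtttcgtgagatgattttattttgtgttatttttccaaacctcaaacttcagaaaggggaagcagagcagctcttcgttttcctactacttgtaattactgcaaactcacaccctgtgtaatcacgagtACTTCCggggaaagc
Ms4a7, second start (chr19:11334696-11334945, minus strand): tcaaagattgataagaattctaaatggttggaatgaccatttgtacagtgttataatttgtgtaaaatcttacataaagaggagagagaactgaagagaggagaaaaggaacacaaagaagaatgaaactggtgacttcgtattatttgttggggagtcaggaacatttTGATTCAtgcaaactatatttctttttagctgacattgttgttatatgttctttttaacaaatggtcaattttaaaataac
Ms4a4a (chr19:11375238-11375487, plus strand): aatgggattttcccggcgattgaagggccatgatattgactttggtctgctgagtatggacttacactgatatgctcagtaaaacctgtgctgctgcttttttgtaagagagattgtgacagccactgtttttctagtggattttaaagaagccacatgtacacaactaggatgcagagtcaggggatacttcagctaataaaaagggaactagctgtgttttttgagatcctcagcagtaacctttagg
Ms4a6c (chr19:11469118-11469367, plus strand): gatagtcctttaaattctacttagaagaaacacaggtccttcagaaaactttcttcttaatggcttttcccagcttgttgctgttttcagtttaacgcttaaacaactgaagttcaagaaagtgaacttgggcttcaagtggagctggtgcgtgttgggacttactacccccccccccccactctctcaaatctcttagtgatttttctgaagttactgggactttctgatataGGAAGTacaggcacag
Ms4a6b (chr19:11518309-11518558, plus strand): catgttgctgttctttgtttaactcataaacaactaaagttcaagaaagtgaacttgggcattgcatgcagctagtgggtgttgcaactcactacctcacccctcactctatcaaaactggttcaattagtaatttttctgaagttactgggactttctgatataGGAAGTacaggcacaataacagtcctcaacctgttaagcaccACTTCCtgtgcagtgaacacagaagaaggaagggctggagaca
Of the 7 promoters the reference held for 6 of the 7 genes, 4 had the ETS letters (Ms4a7, Ms4a4c, Ms4a6c and Ms4a6b), against 19.7% of all 32851 mouse promoters of the same length. The AP-1 letters stood in the promoter of Ms4a14, 32 bases before its start, and in the second promoter of Ms4a7, 81 bases before its start, against 6.75% of all promoters. Neither CACGTG (E-box) nor TTGCGCAA (CEBP) stood in any of the 7, against 6.02% and 0.164% of all, and TATAAA stood in Ms4a14 alone, against 12.4%. Ms4a6c and Ms4a6b, close paralogues, share an identical run of 48 bases with its ETS letters, which begins 49 bases before the start of Ms4a6c and 118 before that of Ms4a6b.
Shared run: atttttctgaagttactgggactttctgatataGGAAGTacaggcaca
These letter matches describe the sequences and say nothing about binding in these nuclei.

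Ms4a4a, Ms4a14, Ms4a7 and Ms4a6d were macrophage genes in this tissue. Among the classes with enough nuclei, Ms4a6b, Ms4a6c and Ms4a4c had their highest class mean in lymphocytes. Monocytes, dendritic cells, mast cells and lymphatic endothelial cells had too few nuclei to be ranked. Levels are UMIs of a gene per 1000000 UMIs of the class in a library (CPM), given as mean ± SD over libraries with at least 20 nuclei of the class, for classes with 3 such libraries or more. Ms4a4a reached 116 ± 67.4 CPM in macrophage-gated nuclei (n = 9) and 3.52 CPM in the next class, T or NK cells, and was higher in macrophages in 8 of 8 libraries. Ms4a14 reached 75.8 ± 37.5 CPM in macrophages and Ms4a7 266 ± 178 CPM, with 5.79 and 43.8 CPM in T or NK cells. Ms4a6d reached 106 ± 46.2 CPM in macrophages and 23.5 ± 25.8 CPM in B cells. These 4 genes had their highest class mean in macrophages.

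Ms4a6b was highest in T or NK cells, with 351 ± 142 CPM (n = 8) against 154 ± 76.8 CPM in macrophages, and 7 of 8 libraries had this order. Ms4a6c reached 242 ± 141 CPM in B cells (n = 7), 163 ± 101 CPM in T or NK cells and 140 ± 64.4 CPM in macrophages. The last 2 of these did not differ beyond their spread, since T or NK cells were higher in 5 of 8 libraries. In C and CCH, macrophages (223 and 141 CPM of Ms4a6c) stood above B cells (114 and 88.9) and T or NK cells (53.0 and 44.4). Ms4a4c reached 93.7 ± 54.2 CPM in B cells (n = 7), 28.4 ± 19.9 CPM in T or NK cells and only 5.21 ± 2.11 CPM in macrophages. Ms4a4c was therefore barely measured in the macrophage comparisons below.

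Summed over the 9 libraries, macrophage-gated nuclei held 86.7% of all Ms4a14 UMIs, 86.6% of Ms4a4a, 82.3% of Ms4a7, 78.6% of Ms4a6d, 72.6% of Ms4a6b, 71.1% of Ms4a6c and 35.7% of Ms4a4c. In single libraries the share varied widely. It was 34.5% to 95.5% for Ms4a14, 47.8% to 95.8% for Ms4a4a, 38.0% to 89.4% for Ms4a7 and 43.2% to 85.9% for Ms4a6d. For Ms4a6b it was 34.0% to 86.3%, for Ms4a6c 27.6% to 84.1% and for Ms4a4c 10.5% to 57.1%. Nuclei without a class held more Ms4a4c UMIs than macrophage-gated nuclei in all libraries but H and HH. They held 121 against 105 in HCH and 33 against 68 in H. Mesothelial nuclei, which line the tissue and should lack these genes, had a median of 6.30% of the macrophage level for Ms4a7 over the libraries, with at most 12.9%. The same median was 0.708% for Ms4a14 (at most 5.37%), 1.81% for Ms4a4a (at most 31.8%, from 2 UMIs in HC), 7.89% for Ms4a6b (21.0%), 6.16% for Ms4a6c (16.7%) and 3.23% for Ms4a6d (16.1%). For Ms4a4c it was 35.2%, with 1 library above 100%, so that its macrophage level stood nearest to this background among the 7.

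**Figure D1:**
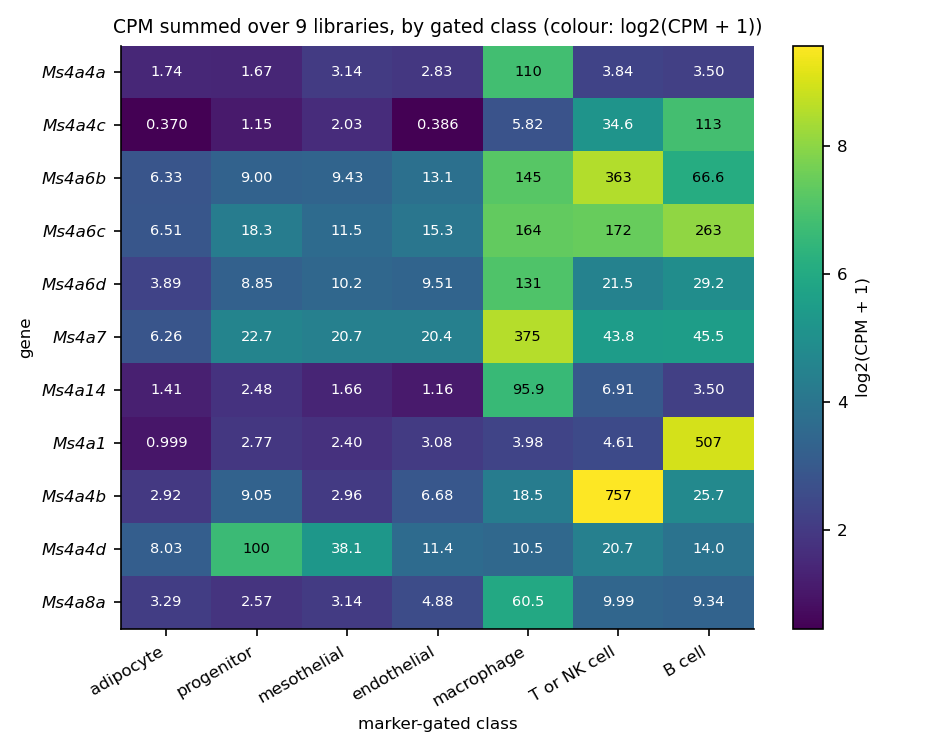
CPM of the 7 genes and 4 other Ms4a genes (rows) in 7 marker-gated cell classes (columns), summed over the 9 libraries and printed in each cell, with colour as log2(CPM + 1). Ms4a4a, Ms4a14, Ms4a7 and Ms4a6d are brightest in macrophages, Ms4a6b in T or NK cells, and Ms4a6c and Ms4a4c in B cells, beside Ms4a1 in B cells at 507 and Ms4a4b in T or NK cells at 757.

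Over whole libraries, all 7 genes were higher in obese tissue than in lean tissue. All were also higher in HHC, the 25-week weight-loss arm, than in CCC, Ms4a4a by only 1.36-fold. Ms4a7 stood at 16.1 (C), 14.1 (CC), 18.1 (CCC) and 35.6 (CCH) CPM, and at 301 (H), 314 (HH), 61.2 (HC), 162 (HHC) and 146 (HCH). The 5 libraries with at least 12 weeks of HFD were all above the 4 others. The share of all genes that separate in this way in whole libraries was not counted. The 7 genes together made up 161 (C), 81.8 (CC), 96.3 (CCC) and 228 (CCH) CPM, against 713 (H), 772 (HH), 148 (HC), 388 (HHC) and 489 (HCH), so that HC overlapped with the libraries without long HFD.

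Each diet pair compares 1 library with 1 library, so the ratios carry exact counting intervals (95%) and no test. Ms4a7 was 18.7-fold higher in H than in C and 22.2-fold higher in HH than in CC. It was 4.33-fold higher in HC than in CC, 8.93-fold in HHC than in CCC and 4.10-fold in HCH than in CCH. Ms4a4a was 1.43-fold in H, 4.23-fold in HH, 0.554-fold in HC, 1.36-fold in HHC and 1.13-fold in HCH against the same partners. Ms4a6b was 1.37-fold, 3.81-fold, 0.855-fold, 2.01-fold and 1.64-fold in the same order. With C, of its own sequencing set but further from it in age, in place of CC, HH was 2.07-fold for Ms4a4a and only 1.71-fold for Ms4a6b. More than 2-fold higher were 5 of the 7 genes in H (background 25.9% of all genes tested), 7 in HH (31.8%), 3 in HC (Ms4a6d, Ms4a7 and Ms4a14; 11.1%), 6 in HHC (12.4%) and 4 in HCH (12.8%). None of the 7 was more than 2-fold lower, but no share of all genes is given for that direction, so this is not read as a trait of the 7. The median log2 ratio of the 7 genes was 1.54, 3.19, 0.62, 1.76 and 1.15 in these pairs, against 0.21, 0.38, -0.03, 0.01 and 0.09 over all genes tested. In whole libraries, more macrophages and more RNA per macrophage cannot be told apart, and macrophage-gated nuclei were 5.43% to 22.9% of nuclei in C, CC, CCC and CCH and 20.2% to 53.8% in the others.

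Within macrophage-gated nuclei the family split: Ms4a7 stood higher in every library with a long HFD history, Ms4a4a and Ms4a6b were lower there on average with overlap, and the other 4 overlapped as well. Ms4a7 had 110 (C), 99.1 (CC), 122 (CCC) and 130 (CCH) CPM, against 484 (H), 591 (HH), 209 (HC), 333 (HHC) and 314 (HCH). The groups did not overlap, HC was the lowest of the 5, and CCH, after 4 weeks of HFD alone, was the highest of the other 4. With each nucleus thinned to 1500 UMIs, Ms4a7 was detected in 14.9% to 17.8% of macrophage-gated nuclei of C, CC, CCC and CCH and in 23.1% to 47.2% of those of the other 5 libraries, against 0% and 1.41% to 7.32% of mesothelial nuclei of these libraries. The thinned shares rest on 3005 of 3487 and 14789 of 17482 macrophage-gated nuclei with enough UMIs, and without thinning they were 20.2% to 27.4% and 36.3% to 55.1%, against 0% to 3.90% and 2.60% to 9.77% of mesothelial nuclei. Detection in mesothelial nuclei thus also moved with the history, at a far lower level, and its part in the difference was not tested.

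Ms4a14, the immediate neighbour of Ms4a7, had 28.2 (C), 41.0 (CC), 79.0 (CCC) and 42.9 (CCH) CPM. It had 126 (H), 136 (HH), 59.8 (HC), 90.1 (HHC) and 78.8 (HCH). The groups overlapped only through CCC, which was above HC and HCH.

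Ms4a4a, a marker of resident and alternatively activated macrophages, had 233 (C), 142 (CC), 80.2 (CCC) and 179 (CCH) CPM. It had 80.8 (H), 142 (HH), 29.7 (HC), 30.9 (HHC) and 129 (HCH). H, HH and HCH lay within the range of the libraries without long HFD, and both weight-loss libraries lay below it.

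Ms4a6b had 324 (C), 142 (CC), 141 (CCC) and 192 (CCH) CPM. It had 107 (H), 149 (HH), 57.1 (HC), 90.3 (HHC) and 184 (HCH). Again HH and HCH overlapped with the controls, while HC was the lowest of all 9 libraries. Ms4a6c ranged from 76.4 to 223 CPM without and from 58.3 to 235 CPM with a long HFD history, Ms4a6d from 49.5 to 128 and from 50.8 to 174 CPM, and Ms4a4c from 2.83 to 6.59 and from 3.27 to 9.90 CPM. All 3 overlapped widely.

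**Figure D2:**
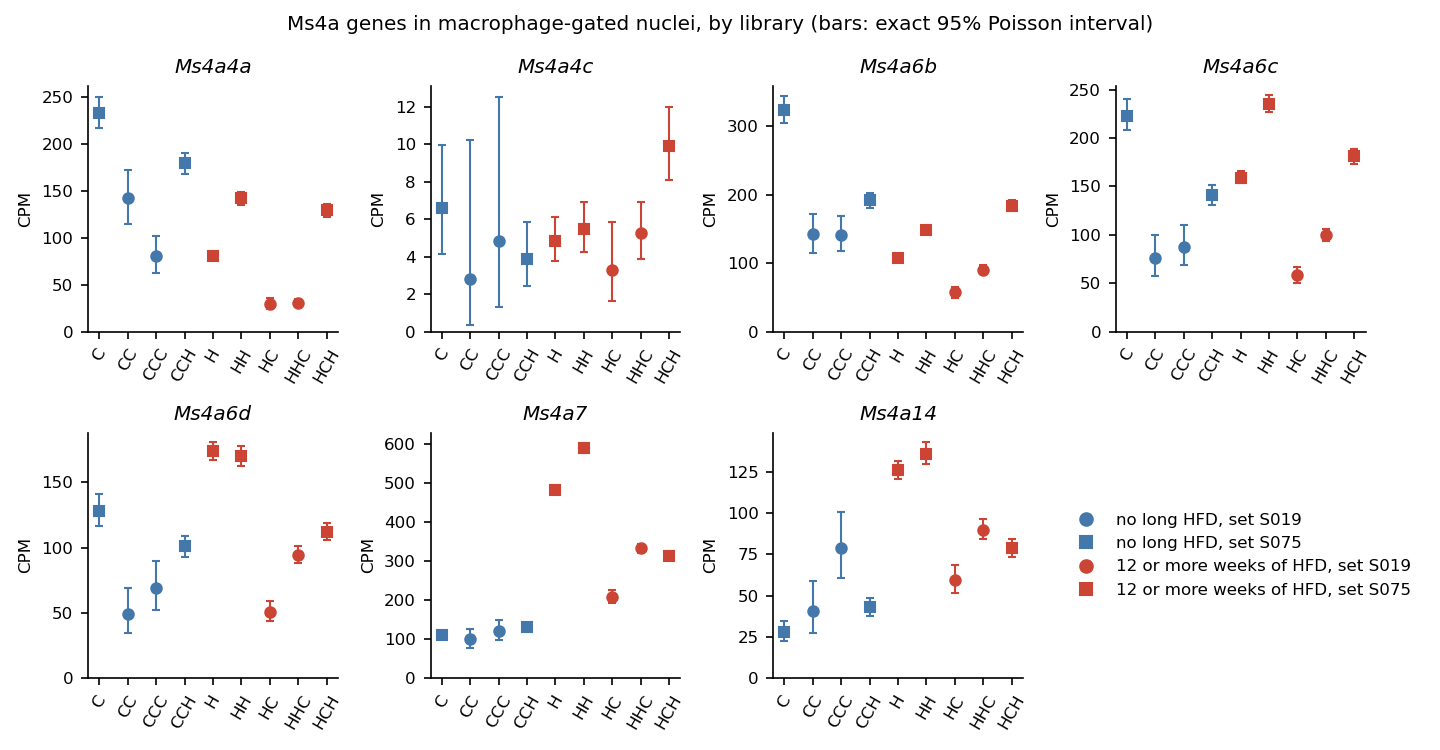
Level (CPM) of each of the 7 genes in macrophage-gated nuclei of the 9 libraries; points are CPM on axes that start at 0, colours give the HFD history and shapes the sequencing set, and bars are exact 95% Poisson intervals, which cover counting error only. Ms4a7 stands at 99.1 to 130 in the 4 libraries without long HFD and at 209 to 591 in the 5 with it, and no other of the 7 separates the groups in this way.

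In the age-matched or nearest control pairs, Ms4a7 in macrophage-gated nuclei was 4.39-fold higher in H than in C (log2 interval 1.98 to 2.29), and 5.96-fold higher in HH than in CC (2.24 to 2.94). The weight-loss pairs gave 2.11-fold for HC with CC (0.72 to 1.46) and 2.74-fold for HHC with CCC (1.17 to 1.75), and re-feeding gave 2.41-fold for HCH with CCH (1.15 to 1.39). Of the listed Ms4a genes, only Ms4a7 was past 2-fold higher in all 5 pairs. For all genes, the share past 2-fold higher in all 5 pairs was not counted. HH and CC differ in sequencing set, age and the chow of the control, which cannot be told apart from the diet, and against C, of its own set, HH was higher by 2.42 on the log2 scale.

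Ms4a4a was 2-fold lower or more in H (log2 ratio -1.53), HC (-2.25) and HHC (-1.38), was equal in HH (142 CPM in both) and was -0.47 in HCH. Ms4a6b had log2 ratios of -1.59 in H, -1.31 in HC and -0.64 in HHC, with 0.08 in HH and -0.06 in HCH. The HH values moved with the control. With C in place of CC, HH gave log2 ratios of -0.72 for Ms4a4a (142 against 233 CPM) and -1.12 for Ms4a6b (149 against 324 CPM), so that Ms4a6b was past 2-fold lower. Past 2-fold higher were 2 of the 7 genes in H (Ms4a7 and Ms4a14; background 27.8%), 4 in HH (Ms4a6c, Ms4a6d, Ms4a7 and Ms4a14; 26.1%), 1 of 6 with enough UMIs in HC (12.3%), 1 in HHC (13.8%) and 2 in HCH (Ms4a4c and Ms4a7; 17.3%). Past 2-fold lower were 2 for H (12.2%), 0 for HH (15.1%), 2 for HC (10.8%), 1 for HHC (8.76%) and 0 for HCH (3.42%). The count for HH holds for CC as its partner, since with C the log2 ratio was 0.08 for Ms4a6c and 0.41 for Ms4a6d, both under 2-fold, and 2.27 for Ms4a14. With so few genes, the counts are read only beside these shares and do not set the 7 genes apart as a list.

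The weight-loss arms were also set against the obese time points in macrophage-gated nuclei. The log2 ratios of HC with H were -1.21 for Ms4a7, -1.44 for Ms4a4a, -0.91 for Ms4a6b and -1.78 for Ms4a6d. Those of HHC with HH were -0.83 for Ms4a7, -2.20 for Ms4a4a, -0.72 for Ms4a6b and -0.85 for Ms4a6d. Both pairs cross the sequencing sets and differ in age, so diet, age and set cannot be told apart in them. A 4-week HFD without a history (CCH with CC, also across the sets) gave log2 0.40 for Ms4a7 (0.04 to 0.77), 0.06 for Ms4a14 and 1.02 for Ms4a6d.

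The share of each gene in the summed UMIs of the 7 does not depend on the depth of a library. Ms4a7 made up 10.5% (C), 17.9% (CC), 20.8% (CCC) and 16.5% (CCH), against 42.6% (H), 41.3% (HH), 44.7% (HC), 44.8% (HHC) and 31.2% (HCH). Both weight-loss libraries held the highest shares of all 9. Ms4a4a made up 13.8% to 25.6% without and 4.15% to 12.8% with a long HFD history, and Ms4a6b 24.2% to 30.7% and 9.45% to 18.2%. The groups did not overlap for any of these 3 shares, but the shares sum to a fixed total, so those of Ms4a4a and Ms4a6b drop wherever Ms4a7 is higher. In HH with CC, for example, the Ms4a4a share was 9.91% against 25.6% at the same level of 142 CPM. UMIs of different genes are not corrected for length, and therefore the shares are compared only between libraries.

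**Figure D3:**
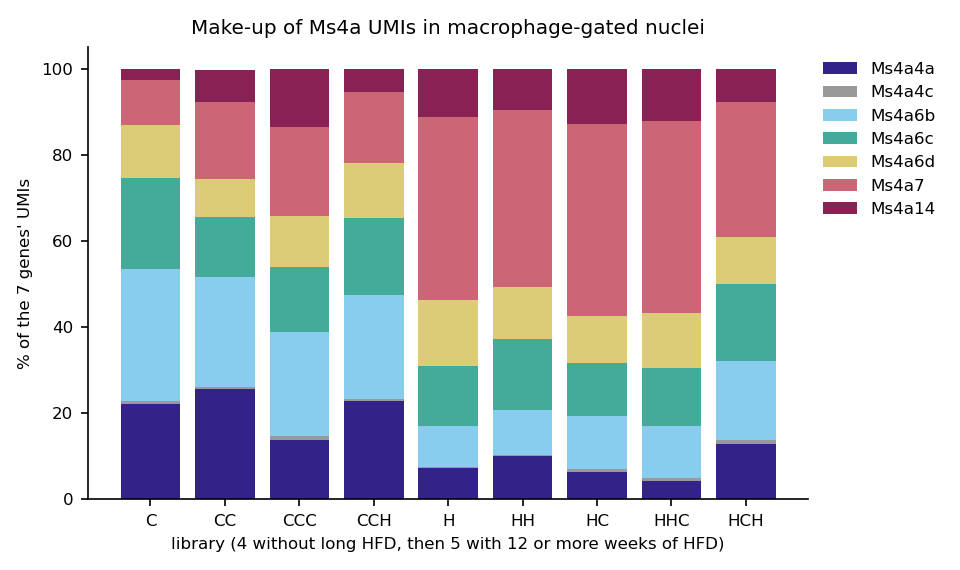
Percentage of the summed UMIs of the 7 genes that came from each gene, in macrophage-gated nuclei of each library. The Ms4a7 part takes 10.5% to 20.8% in C, CC, CCC and CCH and 31.2% to 44.8% in H, HH, HC, HHC and HCH, where the Ms4a4a and Ms4a6b parts of the fixed total are smaller.

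LAM-gated nuclei were then compared with PVM-gated nuclei of the same library, which asks how the family differs between these macrophage states. Of the 6 genes with enough counts, 5 were lower in LAM-gated nuclei (Ms4a4a, Ms4a6b, Ms4a6c, Ms4a6d and Ms4a7) and none was higher. In the edgeR quasi-likelihood test with Benjamini-Hochberg adjustment, 17.8% of the 8203 genes tested were lower in LAM-gated nuclei and 15.7% were higher. Only Ms4a4c failed the filter on low counts.

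Ms4a4a had in PVM-gated nuclei 257 (C), 156 (CC), 93.7 (CCC) and 204 (CCH) CPM, and 235 (H), 317 (HH), 97.0 (HC), 71.5 (HHC) and 242 (HCH). In LAM-gated nuclei it had 46.1 (C), 0 (CC, with 4 nuclei), 18.5 (CCC) and 6.06 (CCH) CPM, and 51.9 (H), 90.2 (HH), 12.3 (HC), 18.9 (HHC) and 53.9 (HCH). LAM-gated nuclei were the lower state in all 7 libraries with at least 20 nuclei in both gates, whereas the LAM gates of CC and CCC held 0 and 1 UMI and cannot be placed. The fitted log2 difference was -2.28 ± 0.14 (SE, edgeR adjusted p = 7.64e-17).

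Ms4a6b had 118 to 370 CPM in PVM-gated nuclei and, in the 7 libraries with at least 20 nuclei in both gates, 30.6 to 96.3 CPM in LAM-gated nuclei. The difference was -2.08 ± 0.12 (edgeR adjusted p = 9.63e-18). It was lower in LAM-gated nuclei in all 7 of these libraries.

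Ms4a6c and Ms4a6d were also lower in LAM-gated nuclei, in all 7 of these libraries. Ms4a6c had log2 -1.09 ± 0.12 (edgeR adjusted p = 8.91e-10), with 274 CPM in PVM-gated and 124 in LAM-gated nuclei of H, for example. Ms4a6d had -0.996 ± 0.137 (edgeR adjusted p = 8.18e-08), with 245 and 160 CPM in H. Its call was lost without the library block (edgeR adjusted p = 0.0978).

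Ms4a7 differed little between the states. Its level was 568 CPM in PVM-gated and 453 in LAM-gated nuclei of H, 638 and 543 for HH, 223 and 186 for HC, 334 and 308 for HHC, and 344 and 276 for HCH. The log2 difference was -0.35 ± 0.12 (edgeR adjusted p = 0.0153), which was lost without HCH (adjusted p = 0.0651), with no filter on low counts (0.0866), with the marker background at the 25th percentile (0.0666) and without the library block (0.855). Ms4a14 gave -0.31 ± 0.13 and did not pass (edgeR adjusted p = 0.0653). Neither gene passed as higher in LAM-gated nuclei.

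**Figure D4:**
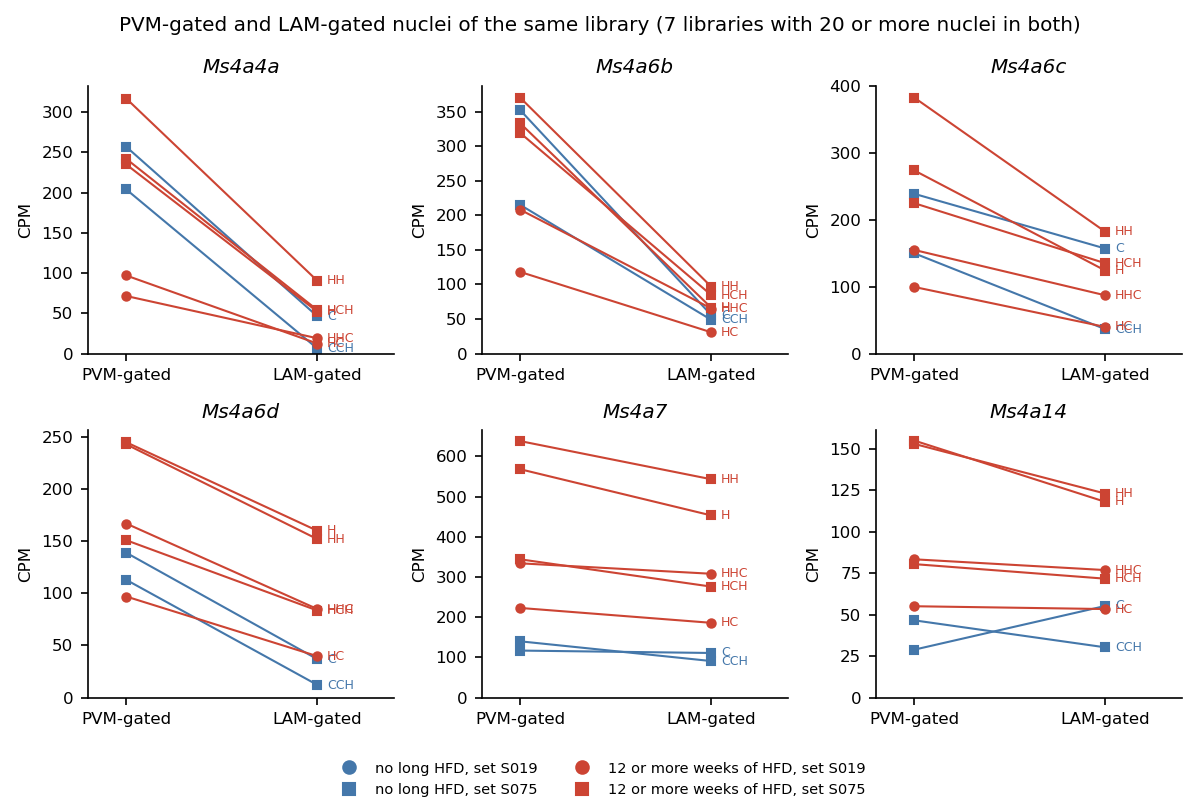
CPM of each gene in PVM-gated and LAM-gated nuclei, with a line joining the 2 values of each of the 7 libraries with at least 20 nuclei in both gates, on linear axes. Ms4a4a and Ms4a6b drop steeply from PVM to LAM in each library shown, whereas the Ms4a7 lines drop little and those with a long HFD history lie above the 2 without it.

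In C, CC, CCC and CCH the LAM gate held only 4 to 40 nuclei, and LAM-gated levels there rest on few UMIs. The difference between states was therefore also compared between the 2 kinds of history. None of the 6 genes passed for this interaction (edgeR, 34 of the 8203 genes passed, 0.414%). In this edgeR fit 2 of the 6 had an unadjusted p under 0.05, against 687 of all 8203 genes. The 2 were Ms4a6d and Ms4a4a. Their LAM minus PVM difference was higher with the history by 1.53 (SE 0.49) and 1.24 (SE 0.56) on the log2 scale. Trem2 is in the LAM marker list, so that its own level in that gate is not a result.

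A last comparison set the 5 libraries with at least 12 weeks of HFD at any time (H, HH, HC, HHC and HCH) against the 4 without (C, CC, CCC and CCH), in all macrophage-gated nuclei and with the sequencing set as a covariate. These libraries differ in age and present diet and are not replicates of 1 diet group, so the p-values measure the spread between such libraries. Those with the history were the weight-loss arms, back on chow, in S019 and mice on HFD in S075. Sequencing set and present diet therefore cannot be told apart among them. Within S019 all libraries ended on chow. Within S075, C ended on chow and the other libraries on HFD, so differences there also mix present diets. The macrophage gate was also stricter in H, HH, HHC and HCH than in the other libraries. It asked for 3 markers above a background of 0 markers in C, CC, CCC, CCH and HC, 2 in H, HH and HHC and 3 in HCH. Ms4a7 and Ms4a14 rose and Ms4a4a and Ms4a6b fell, whereas Ms4a4c, Ms4a6c and Ms4a6d did not pass. With no background subtracted, Ms4a14 lost its call and Ms4a7, Ms4a4a and Ms4a6b kept theirs. Over all 14234 genes tested by the edgeR quasi-likelihood test with Benjamini-Hochberg adjustment, 15.8% rose and 12.8% fell.

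Ms4a7 was 115 ± 13.7 CPM without (SD, n = 4) and 386 ± 151 CPM with the history (n = 5), a log2 difference of 1.56 ± 0.21 (SE, edgeR adjusted p = 0.000946). It passed under 19 of 19 alternatives over all macrophage-gated nuclei. The fits in PVM-gated or LAM-gated nuclei alone, given below, are not among these 19. Within each sequencing set all libraries with the history were above those without. The share of all genes that separate within a single set was not counted, here or for the genes below. On the log2 scale the difference was 1.26 in S019 (HC and HHC with CC and CCC) and 1.89 in S075 (H, HH and HCH with C and CCH). Of all genes tested, 10.7% had levels that did not overlap and were higher with the history, and Ms4a7 was the one gene of the 7 among them. Another 6.44% did not overlap and were lower, none of the 7 among them.

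Ms4a14 was 47.8 ± 21.8 CPM without and 98.2 ± 32.2 CPM with the history, a log2 difference of 0.98 ± 0.30 (edgeR adjusted p = 0.0338). Its groups overlapped within S019 (0.36) and not within S075 (1.64). The call was lost without any 1 of 6 libraries, with edgeR adjusted p = 0.134 without C, 0.113 without CCH, 0.0719 without HH, 0.071 without CC, 0.0686 without HHC and 0.0676 without H. It was also lost with no marker background subtracted (0.0615) and without both CCH and HCH (0.116).

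Ms4a4a was 158 ± 64.2 CPM without and 82.4 ± 52.7 CPM with the history, and fell by 1.36 on the log2 scale (SE 0.26, edgeR adjusted p = 0.00478). Ms4a6b was 200 ± 86.3 and 118 ± 49.7 CPM and fell by 0.97 (SE 0.20, edgeR adjusted p = 0.00766). Within both sequencing sets each was lower in all libraries with the history, with log2 differences of -1.78 and -0.84 for Ms4a4a and -0.97 and -0.79 for Ms4a6b in S019 and S075. The share of all genes that separate within a set was not counted, and over both sets together the levels of each gene overlapped. Without the covariate neither passed (adjusted p = 0.126 and 0.0818). The other 3 genes had log2 differences of -0.09 (Ms4a6c), 0.25 (Ms4a6d) and 0.19 (Ms4a4c), with edgeR adjusted p of 0.753, 0.346 and 0.711.

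The share of LAM-gated nuclei moved with the history, so the same comparison was made in PVM-gated nuclei alone. There Ms4a7 rose too, whereas Ms4a4a and Ms4a6b had no detectable difference. In LAM-gated nuclei alone the direction of both turned, with differences of 1.59 (edgeR adjusted p = 0.331) and 0.73 (0.467) that did not pass. The side without the history was C and CCH alone there. Their LAM gates held 5 and 1 UMIs of Ms4a4a and 6 and 8 of Ms4a6b. In PVM-gated nuclei Ms4a7 had 117 (C), 104 (CC), 138 (CCC) and 140 (CCH) CPM, against 568 (H), 638 (HH), 223 (HC), 334 (HHC) and 344 (HCH). The groups did not overlap, and the log2 difference was 1.66 ± 0.23 (edgeR adjusted p = 0.00399). The share of all genes without overlap in PVM-gated nuclei was not counted. Ms4a6d also rose, by 0.77 ± 0.20 (edgeR adjusted p = 0.0417), from 55.2 to 139 CPM without to 97.0 to 245 CPM with the history, which overlap. These were 2 of the 6 genes tested, against 4.97% of 8113 genes that rose and 2.03% that fell, and none of the 6 fell.

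In PVM-gated nuclei Ms4a4a differed by -0.06 ± 0.21 (edgeR adjusted p = 0.917) and Ms4a6b by 0.15 ± 0.18 (0.652). Ms4a6c gave 0.54 ± 0.20 (0.122) and Ms4a14 1.11 ± 0.38 (0.0979). HHC had 40 PVM-gated nuclei and HC 129, the fewest of the 9 libraries. In LAM-gated nuclei of the 7 libraries with at least 20 of them, no gene passed in edgeR (2058 had an unadjusted p under 0.05). There Ms4a7 had 111 CPM in C and 90.9 in CCH, against 453 (H), 543 (HH), 186 (HC), 308 (HHC) and 276 (HCH), and the difference of 2.15 had an edgeR adjusted p of 0.165.

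**Figure D5:**
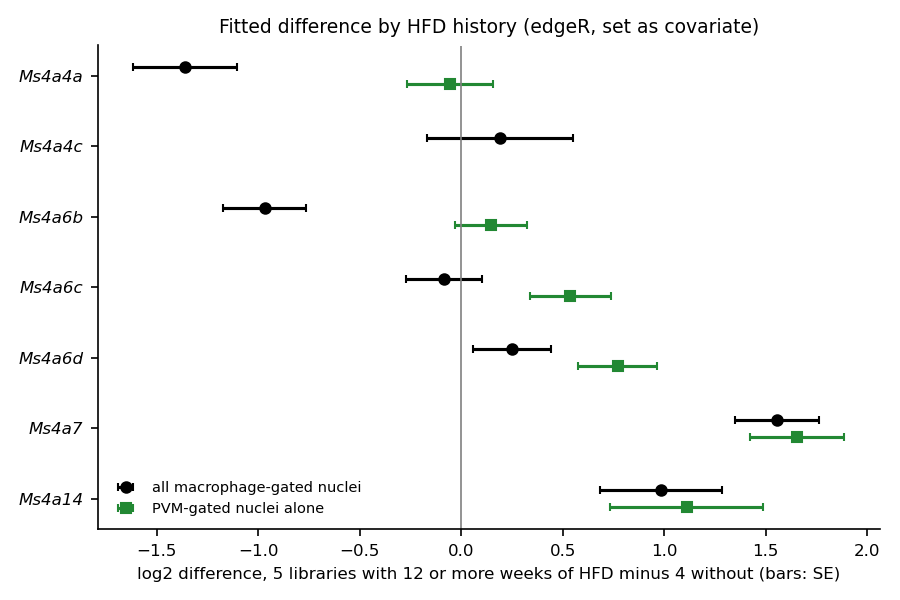
Log2 difference between libraries with and without a long HFD history for each gene, with bars of 1 standard error, over all macrophage-gated nuclei and in PVM-gated nuclei alone. Ms4a7 lies at 1.56 and 1.66, while Ms4a4a and Ms4a6b move from -1.36 and -0.97 over all macrophages to -0.06 and 0.15 in PVM-gated nuclei.

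Ms4a genes are often named beside Trem2 and other macrophage receptors, and 6 such companion genes were read alongside. With the history, Trem2, the lipid receptor, rose from 13.9 ± 11.7 to 271 ± 114 CPM (log2 4.23, edgeR adjusted p = 0.000387). Tyrobp, its signalling adaptor, rose by 2.68 (edgeR adjusted p = 0.00879), and Fcer1g, a related adaptor, rose by 0.94 (edgeR adjusted p = 0.0309). The levels of both adaptors overlapped between the histories. Within S019 and S075 the log2 differences were 1.16 and 3.90 for Tyrobp and 0.11 and 1.69 for Fcer1g. Vsig4, a complement receptor of resident macrophages, and Tmem176a and Tmem176b, which encode CD20-like membrane proteins, did not pass, with log2 differences of 0.31, 0.41 and -0.01. Between the states, Vsig4 was lower in LAM-gated nuclei with a log2 difference of -2.51, as were Tmem176b (-0.88) and Tmem176a (-0.60), and Tyrobp was higher by 0.50, all past the edgeR test. Without the library block, Vsig4 kept its call, whereas Tmem176b, Tmem176a and Tyrobp lost theirs.

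Over the 9 libraries, levels in macrophage-gated nuclei moved together within pairs of the family. Pearson's r of log2(CPM + 1) was 0.915 for Ms4a4a with Ms4a6b, 0.906 for Ms4a6c with Ms4a6d and 0.879 for Ms4a7 with Ms4a14. It was -0.304 for Ms4a4a with Ms4a7. Among 9691 genes with a mean of at least 10 CPM, the most alike to Ms4a7 were Sec61g, a subunit of the protein translocation channel (r = 0.994), and Pdap1 (0.992), and the most alike to Ms4a14 were Ino80dos (0.988) and Cd37 (0.985). Sec61g had 15.6 to 23.2 CPM in C, CC, CCC and CCH and 40.4 to 245 CPM in the other libraries.

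Ms4a4a was closest to Zfp760 (0.963) and Fcna, a ficolin of resident macrophages (0.954), and Ms4a6b to Pld4 (0.974) and Lyl1 (0.963). Ms4a6d was closest to Pcbp2 (0.989) and Emd (0.981), Ms4a6c to Tpd52l2 (0.971) and Irf2bp2 (0.969), and Ms4a4c to Champ1 (0.934) and Lancl1 (0.915). The points are 9 libraries that share diets, histories and sequencing sets, and these values are descriptions only.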

How the data were processed

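Nuclei of snap-frozen epiAT were run on 10x Genomics 3′ chemistry. The authors used Cell Ranger 6.1.2 with an mm10 (GRCm38) reference, intronic reads included, and the deposited matrices hold raw UMI counts per gene and barcode. The submitters' notes also name Seurat 4.1.0. Here barcodes with 500 to 3000 genes and at most 40000 UMIs were kept and doublets marked by Scrublet (scanpy 1.11.5) removed, at the expected rate where its automatic threshold marked under 0.5%. A nucleus joined the class with at least 3 markers above its library's background (10th percentile), unless another class reached over 50% as many; LAM and PVM gates needed at least 2 markers and at most 50% as many of the other state. CPM have exact Poisson intervals and ratios exact conditional ones, both covering counting error only. Summed counts were tested with edgeR 4.0.16 (R 4.3.3; library as a block for LAM and PVM, sequencing set as a covariate for HFD history), SE being derived from the test's F. A pair of libraries needed 20 UMIs. DESeq2 1.42.0, other gates, filters and left-out libraries were alternatives. Scripts were tested on simulated data. The 7 genes and all lists were chosen with earlier results of these data known; named were the 7, the other Ms4a genes, 6 companions and the 2 genes most alike to each. Clec7a and the protein sequences were not analysed here.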

Additional observations from a re-analysis of the deposited data

How the results depend on the processing

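No paired analysis was possible because each diet group has 1 library; the library block of the LAM and PVM comparison was part of its design. That block mattered: without it, 774 genes were higher and 954 lower in LAM-gated nuclei in place of 1291 and 1460, Ms4a6d lost its call (edgeR adjusted p = 0.0978) and so did Ms4a7 (0.855). In the 4 libraries never on long HFD alone, 357 genes were higher and 443 lower. Ms4a4a, Ms4a6b and Ms4a6c passed under 17 of 17 alternatives, Ms4a7 under 13 and Ms4a14 under 3, at edgeR adjusted p from 0.00882 to 0.84. The fits in libraries with or without a long HFD history alone are not among these 17.

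For the HFD history, 2255 genes rose and 1821 fell. The counts were 403 and 165 in PVM-gated nuclei, 0 and 0 in LAM-gated nuclei (edgeR, 2058 genes at an unadjusted p under 0.05), 1312 higher without CCH and HCH, and 1092 lower without the covariate. Leaving out each library in turn gave 1031 to 3023 higher and 844 to 2408 lower, and the counts changed by over 1.5 times without C, CCH, HHC, HH or H. Ms4a4a and Ms4a6b passed under 18 of 19 alternatives and Ms4a14 under 11. These alternatives leave out the fits in PVM-gated or LAM-gated nuclei alone, where none of these genes passed.

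Signs of the history difference turned for 2 genes that had not passed and 2 that had. Ms4a4c gave log2 differences of -0.45 in clusters, -0.38 in LAM-gated nuclei, -0.24 without CCH and HCH, and -0.075 to 0.425 with each library left out. Ms4a6c gave 0.008 at a gate of 5 markers, 0.056 with background at the 25th percentile, 0.54 in PVM-gated and 0.80 in LAM-gated nuclei, 0.09 within S075, and -0.202 to 0.093 with each library left out. Of those that had passed, Ms4a6b turned to 0.15 in PVM-gated and 0.73 in LAM-gated nuclei, and Ms4a4a to 1.59 in LAM-gated nuclei. The LAM-gated values rest on few UMIs in C and CCH. The cause of these changes of sign was not tested. With C as the control of HH in macrophage-gated nuclei, the genes past 2-fold and their counts in each direction differed: Ms4a6c (log2 0.08) and Ms4a6d (0.41) were no longer past 2-fold higher, and Ms4a6b (-1.12) was past 2-fold lower. Depth limits Ms4a4c (983 UMIs in all) and the LAM gate of lean tissue.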

Other observations

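Ms4a8a, another gene of the family that was not among the 7, had the lowest edgeR adjusted p for the HFD history among all Ms4a genes tested in macrophage-gated nuclei. It had 223 (C), 215 (CC), 187 (CCC) and 149 (CCH) CPM, against 24.9 (H), 34.2 (HH), 16.7 (HC), 24.4 (HHC) and 65.5 (HCH). The groups did not overlap, as for 6.44% of all genes tested that were lower with the history. Ms4a8a fell by 2.75 on the log2 scale with a long HFD history (SE 0.32, edgeR adjusted p = 0.000413). In PVM-gated nuclei alone the log2 difference was -0.69 ± 0.23 and did not pass (edgeR adjusted p = 0.0909). It was also 3.46 lower in LAM-gated than in PVM-gated nuclei on the log2 scale (SE 0.19, edgeR adjusted p = 1.27e-18), with 175 CPM in PVM-gated and 6.14 in LAM-gated nuclei of H.

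Ms4a4b, a T cell gene, had 1.20 to 4.57 CPM in macrophage-gated nuclei without and 10.7 to 32.3 CPM with a long HFD history (log2 2.73, edgeR adjusted p = 0.00456), beside 757 CPM in T or NK nuclei. The part of T cell RNA in that difference was not tested. Outside the immune cells, Ms4a4d was the family member of the stroma, with 101 ± 15.4 CPM in progenitors and 38.4 ± 12.6 CPM in mesothelial nuclei (SD, n = 9 each). Ms4a2 was measured at 524 CPM in mast cells.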
